A study of Mus musculus with 2 samples.

Results

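The genes described here are those that encode the histone variant H3.3 and the chaperones that carry it into chromatin. They were taken by symbol from a list in 4 roles, which gave 10 genes among the 26127 probes (merged gene transcripts) measured. The roles are the H3.3 genes (H3f3a, H3f3b), the HIRA complex (Hira, Ubn1, Ubn2, Cabin1), ATRX and DAXX (Atrx, Daxx), and the general H3 chaperones (Asf1a, Nasp). RNA was sequenced from mouse embryonic stem (ES) cells of WT and G34R genotype, both of the 129S1/SvImJ strain and both grown in serum with leukaemia inhibitory factor, at 1 library per cell line. WT cells were unmodified (H3f3a+/+, H3f3b+/+). G34R cells (H3f3a+/G34R, H3f3b+/+) carried arginine for glycine at residue 34 of H3.3 on a single H3f3a allele, with both H3f3b alleles unmodified. The mutant allele was made by replacing exon 2 of H3f3a with a coding-sequence minigene, which Cre-recombinase left driven by the gene's own promoter in selected clones, and how many clones the library represents is not given in the sources used here. No value below therefore has a replicate, no test between cell lines was possible, and all differences are between 2 libraries.

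Most nucleosomal H3 is made in S phase from intronless, clustered genes and is deposited behind the replication fork by CAF-1. H3.3 is instead transcribed throughout the cell cycle from a pair of intron-containing genes that encode the same protein, and it can be deposited without DNA synthesis. The HIRA complex places H3.3 at active genes and regulatory elements, whereas DAXX with the ATP-dependent remodeller ATRX places it at telomeres, pericentric repeats and silenced retrotransposons, which is a well-known activity of mouse ES cells. ASF1A hands H3-H4 dimers to HIRA, and NASP holds the soluble reserve of H3-H4.

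The reference sequences show where the H3.3 genes differ from each other and from the replication-coupled genes around the mutated residue. In histone numbering the initiator methionine is not counted, and sequences are from the mm9 assembly. Over codons 27 to 36, with codon 34 in capitals, the coding strands read as follows. H3f3a lies at chr1:182741947-182741976 (minus strand, exon 2 of 4), H3f3b at chr11:115885213-115885242 (minus strand, exon 4 of 6), Hist1h3a at chr13:23854112-23854141 (minus strand, single exon) and Hist2h3b at chr3:96072698-96072727 (plus strand, single exon).
H3f3a: aagagtgcgccctctactggaGGGgtgaag
H3f3b: aaaagcgcgccctctaccggcGGGgtgaag
Hist1h3a: aagagcgccccggccaccggcGGCgtgaag
Hist2h3b: aagagcgccccggccacgggcGGCgtgaag
H3f3b differed from H3f3a at 4 of these bases (G84A, T87C, T99C and A102C, with position 1 at the first base of the start codon and the H3f3a base given first). Hist1h3a differed at 8 and Hist2h3b at 8. All 11 replication-coupled H3 genes with a measured probe carried GGC at codon 34, where both H3.3 genes carried GGG.

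The second stretch that sets H3.3 apart is the one its chaperones read. DAXX and the HIRA-complex subunit UBN1 are known to recognise the glycine at residue 90, where the replication-coupled proteins have methionine. Over codons 83 to 92, with codons 87 to 90 in capitals, H3f3a lies at chr1:182740251-182740280 (exon 3), H3f3b at chr11:115884942-115884971 (exon 5) and Hist1h3a at chr13:23853944-23853973.
H3f3a: cgcttccagagtGCAGCTATTGGTgctttg
H3f3b: aggtttcaaagtGCAGCCATCGGTgccctt
Hist1h3a: cgcttccagagcTCGGCCGTCATGgctctg
The H3.3 genes differed from each other at 9 of these 30 bases, all without a change of residue. Translated, H3f3a and H3f3b differed at 0 residues although their coding sequences were only 76.7% identical. Each of the 11 replication-coupled genes differed from H3.3 at residues 31, 87, 89 and 90 (S31A, A87S, I89V and G90M, H3.3 residue first), and 4 of them also at residue 96 (S96C).

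The deposited values were RPKM, which are read numbers scaled for transcript length and for the size of the library. From the RPKM steps of short single-exon genes, the totals were estimated as 88.0 M reads in WT cells and 72.3 M in G34R cells. Reads per gene were estimated from RPKM, exon length and these totals. The 95% intervals given below for single genes and for shares are exact intervals from these reads. Those for a change in the ratio of 2 genes are normal approximations from the same reads. All of these intervals cover counting error only, since there was no second culture. They take the estimated reads as exact and independent. Amplified reads are not independent molecules, so the intervals may be too narrow even for counting error. Markers fixed for ES cells were present, with 10 of 10 at 8.28 RPKM or more in both libraries. Of these, Nanog (127.07 RPKM in WT and 52.24 in G34R cells) and Zfp42 (180.3 and 16.4) were more than 2-fold lower in G34R cells. Klf4 (25.14 and 43.71) and Utf1 (61.89 and 108.56) were higher by less than 2-fold, and the 10 markers had a median log2 ratio of -0.034, with 6 lower and 4 higher. The 3 endoderm markers summed to 0.98 RPKM in WT and 2.83 in G34R cells, the 3 mesoderm markers to 0.21 and 0.41, and the 2 neural markers found to 2.14 and 3.94. The 6 fibroblast markers summed to 1.48 and 0.94 RPKM, with Dcn and Postn listed at 0 in both. The part of these differences in the values below was not tested. In bulk RNA, fewer cells with a transcript and less of it per cell cannot be told apart.

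All 10 genes were expressed above 1 RPKM in both libraries, and none differed by more than 2-fold. Differences are given as log2 (G34R/WT RPKM), which is negative where RNA was lower in G34R cells. Of the 10728 probes with at least 1 RPKM in 1 or both libraries, 10.5% differed by more than 2-fold, 6.42% being lower and 4.09% higher in G34R cells. H3f3a was 1.67-fold lower and Atrx 1.51-fold higher, and they were the only 2 of the 10 past 1.5-fold, against 25.4% of all probes. Lower values in G34R cells were seen for 5 genes and higher values for 5. Among the lower genes, Cabin1 differed so little that its ratio changed sign when the libraries were scaled to the same RPKM sum (0.036) or centred on the median of all probes (0.045), whereas both H3.3 genes stayed lower under either scaling. The median log2 ratio of the 10 was 0.0031, whereas that of all probes was -0.054 with an interquartile range of -0.35 to 0.25. For 7 genes the counting interval of the ratio left out 0 (4 lower, 3 higher), and for Cabin1, Daxx and Asf1a it held 0. The share of all probes whose interval left out 0 was not computed, so this count is no result about the 10 genes.

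**Figure D1:**
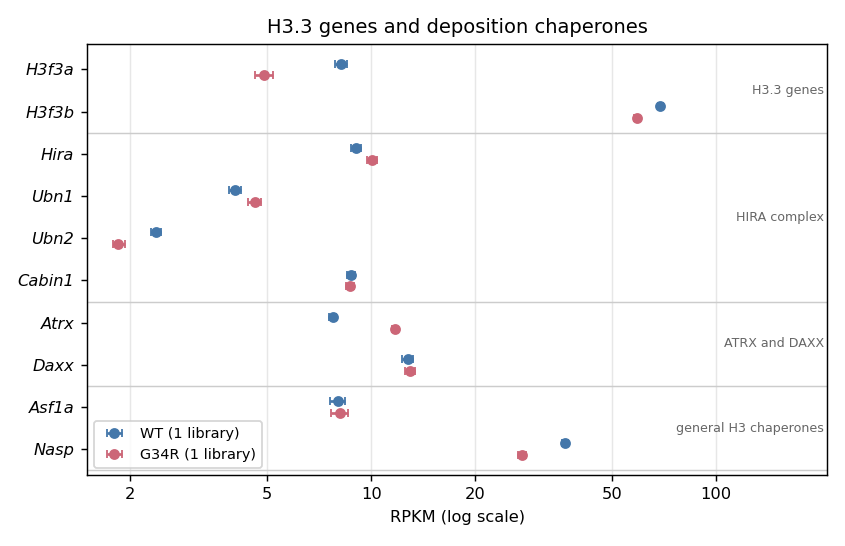
RPKM (log axis) of the 10 genes in the WT library (blue) and the G34R library (red), grouped by role. Points are single libraries and bars are 95% counting intervals. H3f3b and Nasp sit highest in both libraries and Ubn2 lowest, and the widest gaps between colours are those of H3f3a, Atrx, Nasp and Ubn2.

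**Figure D2:**
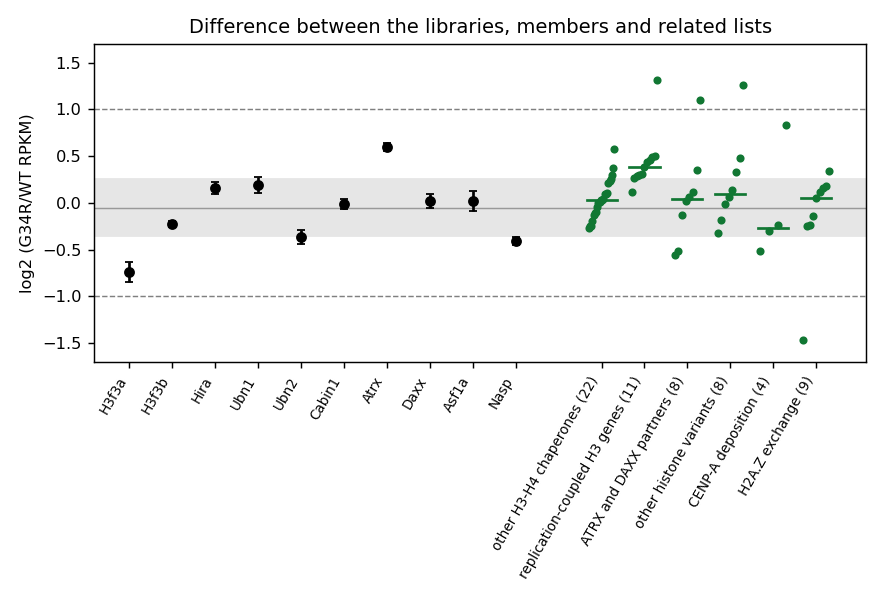
The log2 (G34R/WT RPKM) of each of the 10 genes (black, bars are 95% counting intervals) and of 6 lists of related genes (green points are genes with at least 1 RPKM, bars are medians, the number of probes is in brackets). The grey band is the interquartile range of all probes, the grey line their median, and dashed lines mark 2-fold. H3f3a and Atrx lie farthest from 0 among the 10, and all 11 replication-coupled H3 genes lie above 0.

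RNA of the H3.3 genes was lower in G34R cells for both genes, and H3f3b was by far the more abundant of the pair in both libraries. H3f3a (ENSMUSG00000060743, chr1:182730963-182744074, minus strand) was at 8.17 RPKM in WT cells (interval 7.84 to 8.51, about 2254 reads) and 4.89 in G34R cells (4.61 to 5.19, about 1109 reads). Its log2 ratio was -0.74 (-0.85 to -0.64), and 17.6% of the 10728 probes differed at least as far. H3f3b (ENSMUSG00000016559, chr11:115883226-115889276, minus strand) was at 68.84 RPKM in WT (about 15230 reads) and 58.76 in G34R cells (about 10683 reads). Its log2 ratio of -0.23 (-0.26 to -0.19) was smaller, and 61.1% of probes differed at least as far. The excess of H3f3b over H3f3a thus went from 8.43-fold in WT to 12.0-fold in G34R cells, a log2 change of 0.51 (0.40 to 0.62). Put as a share, H3f3a supplied 10.6% of the summed H3.3 RPKM in WT and 7.68% in G34R cells. Counted as estimated reads rather than per length, the shares were 12.9% (exact binomial interval 12.4 to 13.4) and 9.4% (8.88 to 9.95). Which part of the minigene transcript falls within the H3f3a probe is not given in the sources used here, so less H3f3a RNA and a mutant transcript that the probe covers only in part cannot be told apart. The deposited RPKM do not separate the alleles, and single reads across the mutated codon were not used here.

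H3f3a also had the largest share of its transcript copied elsewhere in the genome among the 10 genes. Of the 2792 windows of 50 bases (the read length) along its longest coding transcript, 906 (32.4%) had an exact copy elsewhere in mm9, at 58 loci. These copies sat over the coding sequence, where 94.3% of the 460 windows had a copy, more than over the 3′ untranslated region, where 19.9% of 2196 did. For 272 windows (9.74%) there were 10 or more copies, and STAR by default leaves unmapped any read with more than 10 locations. The H3f3b transcript had copies for 25.6% of its windows, at 4 loci, with 0 windows at 10 or more. Among the chaperones, 4.14% of Ubn2 windows (at 2528 loci) and 1.42% of Nasp windows (at 2 loci) had a copy, and Hira, Ubn1, Cabin1, Atrx, Daxx and Asf1a had 0 such windows. By this count H3f3a was the gene of the 10 with the most windows at which a read could have been placed elsewhere, and the part of this in its values was not tested.

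**Figure D3:**
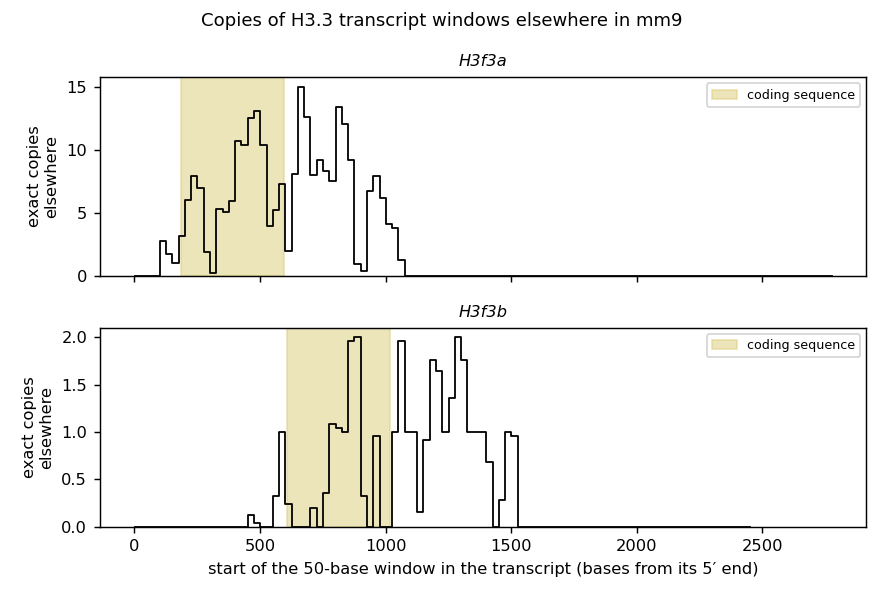
Number of exact copies elsewhere in mm9 (mean over 25 consecutive windows) of each 50-base window along the longest coding transcripts of H3f3a and H3f3b, against the window's start in bases from the transcript's 5′ end. The shaded span is the coding sequence. Copies of H3f3a cover its coding sequence and the near part of its 3′ untranslated region and reach into double figures, whereas H3f3b has far fewer copies per window, and the distal 3′ ends of both have none.

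Of these copies, 2 had single-exon probes of their own on the same strand. Gm10257 (chr13:101715851-101716875, minus strand), which is 98.6% identical to the H3f3a transcript over 1035 bases, was listed at 7.19 RPKM in WT and 3.64 in G34R cells, a log2 ratio of -0.98. Gm6132 (chr13:70145574-70146603, minus strand), 96.1% identical, was at 0.19 and 0.12 RPKM. Gm10257 was therefore listed at nearly the level of H3f3a itself and was lower in the same library. How many of its reads came from H3f3a was not tested. With the RPKM of both rows added to that of H3f3a, its share of H3.3 RPKM was 18.4% in WT and 12.8% in G34R cells. With their reads added instead and scaled to the length of H3f3a, a setting chosen after seeing the data, it was 13.3% and 9.43%.

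Replication-coupled H3 genes differed in the other direction from the H3.3 genes. All 11 that were measured were higher in G34R cells, also under either scaling, with log2 ratios from 0.11 to 1.31 and a median of 0.39, against -0.054 for all probes. Of the 10728 probes, 4824 were higher without scaling. Hist1h3i was the highest of the 11, at 601.1 RPKM in WT and 785.5 in G34R cells, and Hist2h3b was the only gene of the list past 2-fold, at 46.09 and 114.55 RPKM. The count of 1 of 11 past 2-fold is near the 10.5% of all probes. Summed RPKM of the 11 genes was 2479.07 in WT and 3258.29 in G34R cells, while that of the H3.3 genes was 77.01 and 63.65. The H3.3 genes therefore made up 3.01% of all H3 RPKM in WT and 1.92% in G34R cells. Counted as estimated reads, which gives weight to the longer H3.3 transcripts, the shares were 10.4% (10.3 to 10.6) and 6.74% (6.62 to 6.86). The replication-coupled genes share sequence, with 24.8% to 79.7% of their windows present elsewhere in mm9. Values of single genes of this list are therefore uncertain, and the 11 genes are not separate observations. How far shared reads stay within their sum was not tested. Their transcripts end in a stem-loop in place of a poly(A) tail and are kept by a total RNA protocol such as the one used here.

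**Figure D4:**
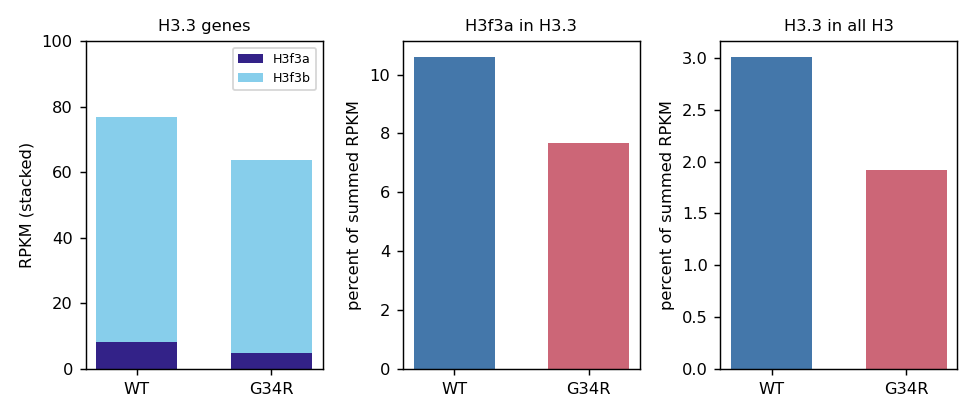
Left, RPKM of H3f3a and H3f3b stacked for each library. Middle, H3f3a as a percent of the summed RPKM of H3f3a and H3f3b (10.6 in WT, 7.68 in G34R). Right, the H3.3 genes as a percent of the summed RPKM of all H3 genes measured (3.01 in WT, 1.92 in G34R), 1 library per bar and no error bars.

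Genes of the HIRA complex were at moderate levels and did not move together. Hira (ENSMUSG00000022702, chr16:18877130-18970402, plus strand), the WD-repeat subunit that gives the complex its name, was at 9.03 RPKM in WT and 10.07 in G34R cells, with a log2 ratio of 0.16 (0.090 to 0.22). Ubn1 (ENSMUSG00000039473, chr16:5050161-5086378, plus strand), the subunit that reads H3.3, was at 4.03 and 4.59 RPKM, with a log2 ratio of 0.19 (0.10 to 0.27). Both were thus slightly higher in G34R cells, and at least 67.1% of all probes differed as far as either. Ubn2 (ENSMUSG00000038538, chr6:38383925-38474825, plus strand), the paralogue of Ubn1, was lower, at 2.38 RPKM in WT and 1.85 in G34R cells, with a log2 ratio of -0.36 (-0.44 to -0.29). For Ubn2, 43.5% of all probes differed at least as far. Cabin1 (ENSMUSG00000020196, chr10:75108855-75227102, minus strand), a large scaffold subunit, was at 8.75 and 8.69 RPKM, with a log2 ratio of -0.0099 (-0.064 to 0.044). The 4 genes summed to 24.19 RPKM in WT and 25.2 in G34R cells, with a median log2 ratio of 0.074, 2 being lower and 2 higher (1 and 3 under either scaling).

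Among the ratios taken within the complex, that of the ubinuclein paralogues changed most. Ratios of Hira and Cabin1 to Ubn2 were not taken, so this is no result about the paralogue pair. With 1 RPKM added, the log2 ratio of Ubn2 itself went from -0.36 to -0.25. Ubn1 RNA exceeded Ubn2 RNA 1.69-fold in WT and 2.48-fold in G34R cells, a log2 change of 0.55 (0.44 to 0.66). The ratio of Hira to Ubn1 was 2.24 in WT and 2.19 in G34R cells, a log2 change of -0.030 whose interval (-0.14 to 0.078) held 0. Hira to Cabin1 went from 1.03 to 1.16, a log2 change of 0.17 (0.082 to 0.25).

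ATRX and DAXX act together, but their RNA differed unequally between the libraries. Atrx (ENSMUSG00000031229, chrX:102992954-103124736, minus strand) was at 7.73 RPKM in WT cells (interval 7.57 to 7.89, about 8914 reads) and 11.71 in G34R cells (11.5 to 11.9, about 11097 reads). Its log2 ratio was 0.60 (0.56 to 0.64), the highest of the 10, and 24.5% of all probes differed at least as far. Daxx (ENSMUSG00000002307, chr17:34046359-34052534, plus strand), the subunit that binds the histone, was at 12.78 and 12.94 RPKM, with a log2 ratio of 0.018 (-0.056 to 0.092). The ratio of Atrx to Daxx RNA went from 0.605 in WT to 0.905 in G34R cells, a log2 change of 0.58 (0.50 to 0.67). The ratio of Atrx was thus above that of Daxx, and that of Ubn2 was below those of its partners. However, 24.5% of all probes differed at least as far as Atrx and 43.5% at least as far as Ubn2.

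Known partners of ATRX and DAXX, such as nuclear body proteins and heterochromatin factors, were listed for 9 genes. Of these 8 reached 1 RPKM, with 3 lower and 5 higher in G34R cells and a median log2 ratio of 0.039. Sp100, a nuclear body protein, was listed at 0 in both libraries. Suv39h1, an H3K9 methyltransferase, was the only member of this list past 2-fold, at 1.57 RPKM in WT and 3.36 in G34R cells (log2 ratio 1.10). It was no longer past 2-fold with 1 RPKM added to both values (log2 ratio 0.76), and it lay below a minimum of 5 RPKM. The count of 1 of 8 past 2-fold is near the 10.5% of all probes and is no result about the list. The most abundant was Trim28, a corepressor of retrotransposons, at 326.77 RPKM in WT and 222.49 in G34R cells (log2 ratio -0.55).

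Of the general H3 chaperones, Nasp RNA was lower in G34R cells and Asf1a RNA was close to equal in the libraries. Nasp (ENSMUSG00000028693, chr4:116273657-116300556, minus strand) was at 36.39 RPKM in WT (about 10103 reads) and 27.42 in G34R cells (about 6256 reads), with a log2 ratio of -0.41 (-0.45 to -0.36). For Nasp, 38.7% of all probes differed at least as far. Asf1a (ENSMUSG00000019857, chr10:53316767-53329019, plus strand) was at 8.01 and 8.10 RPKM, with a log2 ratio of 0.016 (-0.092 to 0.12). The ratio of Nasp to Asf1a therefore went from 4.54 to 3.39, a log2 change of -0.42 (-0.54 to -0.31). Relative to H3f3b, which was itself lower in G34R cells, Nasp went from 0.529 to 0.467, a smaller log2 change of -0.18 (-0.24 to -0.12). Asf1b, the paralogue linked to proliferation, was at 8.96 RPKM in WT and 10.68 in G34R cells, so the ratio of Asf1a to Asf1b went from 0.894 to 0.758, a log2 change of -0.24 (-0.39 to -0.086).

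The wider set of H3-H4 chaperones was set beside all probes, of which 10.5% were past 2-fold, 5877 were lower and 4824 higher. Of 22 listed genes, which include CAF-1, FACT and the MCM2 pathway, all had at least 1 RPKM and 0 were past 2-fold, with 9 lower and 13 higher in G34R cells (7 and 15 with ratios centred on the median of all probes) and a median log2 ratio of 0.029. Their ratios ran from -0.27 to 0.58. The upper end was Spty2d1, a chaperone at only 1.83 RPKM in WT and 2.73 in G34R cells, and the most abundant was Set, at 87.13 and 80.9 RPKM. The ratios of Nasp and Ubn2 lay below the lowest of these 22, which was that of Hat1 (-0.27, interval -0.32 to -0.23), and that of Atrx lay above the highest. However, the interval of Ubn2 (-0.44 to -0.29) overlapped that of Hat1, and the ratio of Atrx (0.60) lay within the interval of Spty2d1 (0.44 to 0.71). Of all probes, 38.7% differed at least as far as Nasp, 43.5% as Ubn2 and 24.5% as Atrx. The 8 chaperones among the 10 genes had a median of 0.017, with 3 lower and 5 higher (2 and 6 under either scaling).

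The order of levels was mostly shared by the libraries. In both, H3f3b was highest, followed by Nasp and Daxx, and Ubn2 was lowest. In WT cells these were followed by Hira at 9.03 and Cabin1 at 8.75 RPKM, whose counting intervals overlapped, and then by H3f3a, Asf1a and Atrx at 8.17, 8.01 and 7.73 RPKM, each overlapping its neighbour in the order. In G34R cells Atrx was the fourth at 11.71 RPKM, above Hira at 10.07, while H3f3a was the eighth at 4.89 RPKM, its interval overlapping that of Ubn1 at 4.59. Cabin1 at 8.69 and Asf1a at 8.10 RPKM lay between them with overlapping intervals.

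The lists for other variant histones held 1 of 8, 0 of 4 and 1 of 9 probes past 2-fold, which is near the 10.5% of all probes and is no result about these lists. Of 8 other histone variants measured, 3 were lower and 5 higher (2 and 6 under either scaling), with a median log2 ratio of 0.099. H2afy, which encodes macroH2A1, was the only gene of that list past 2-fold, at 6.02 RPKM in WT and 14.41 in G34R cells (log2 ratio 1.26). H2afx, the variant phosphorylated at DNA breaks, was the most abundant, at 196.26 and 205.11 RPKM. The 4 genes for deposition of the centromeric variant CENP-A had a median of -0.27, with 0 past 2-fold. Hjurp, the CENP-A chaperone, was the highest of the 4 and was at 10.48 RPKM in WT and 18.65 in G34R cells (log2 ratio 0.83). The 9 probes of 8 genes for H2A.Z exchange had a median of 0.051. Ino80, a remodeller ATPase, was the only gene of this list past 2-fold, at 16.6 RPKM in WT and 6.02 in G34R cells (log2 ratio -1.46). Ruvbl2, a helicase subunit shared by several of these complexes, was the most abundant, at 72.9 and 78.87 RPKM.

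The ratios were also set beside those of neighbouring genes on the chromosome. Around Atrx, all 5 other probes within 500 kb that had at least 1 RPKM had lower ratios, with a median of -0.38, and the 363 such probes of the X chromosome had a median of -0.21. Both medians were thus below 0, whereas the Atrx ratio was above 0. Of all 10728 probes, only 1215 were more than 1.5-fold higher, as Atrx was, so most probes of any region lie below it. Around H3f3a, 9 of 12 probes had higher ratios and the median was -0.21. The 3 below H3f3a lay 79.2 to 128.4 kb away, and they were Lefty2 (37.82 RPKM in WT and 3.89 in G34R cells), Lefty1 (39.91 and 5.39) and Tmem63a (1.95 and 0.84). Around H3f3b, 27 of 29 probes had higher ratios, with a median of 0.33. All 8 probes around Hira and 15 of 17 around Ubn1 had lower ratios than the gene itself, and 12 of 18 around Nasp had higher ones. The share of all probes above or below each gene was not computed, so these counts are no result about the neighbourhoods.

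**Figure D5:**
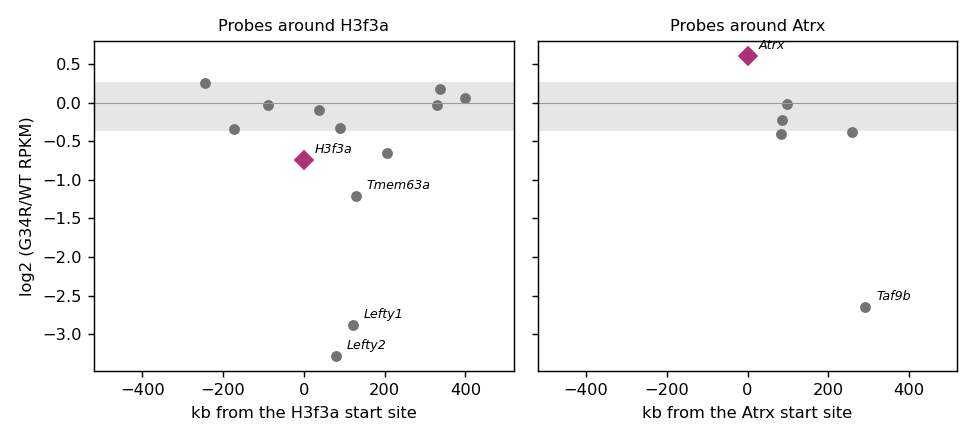
The log2 (G34R/WT RPKM) of H3f3a and Atrx (diamonds) and of the other probes with at least 1 RPKM within 500 kb (grey points), against the distance of their start sites in kb (positive towards higher coordinates). The grey band is the interquartile range of all probes. Atrx lies above each of its 5 neighbours, and H3f3a lies below 9 of its 12.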

How the data were processed

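Total RNA was read as 50 bp single-end stranded reads, 1 library per cell line. Per the submitters' processing notes and the study's methods, the authors aligned reads to mm9 with STAR 2.4.2a (default settings), took primary alignments into Seqmonk, merged isoforms and deposited length-corrected RPKM per mRNA probe, to 2 decimals and without counts. Each value depends on the total of its library, and reads with several locations are placed once or dropped. Ratios were taken as log2 (G34R/WT RPKM) after raising any value under 0.01 to 0.01, and probes with at least 1 RPKM in 1 or both libraries were kept. Totals came from the RPKM steps of genes with a single exon below 800 bp and below 6 reads (71 in WT, 65 in G34R). Reads per gene used the merged exons of coding transcripts in GENCODE M1 on mm9 (26055 of 26127 probes matched), which may differ from the lengths in Seqmonk. Exact copies were found with BLAST 2.17.0. Named genes were the 10 members and, of each other list, those past 2-fold (or the largest ratio) and the most abundant. Hist2h3c2, H1f0 and Sox1 matched no probe name. Members and lists were chosen with earlier results of these data known. Alternatives were other pseudocounts, RPKM minimums, scalings and fold thresholds. The estimate of library totals and the calls from log2 ratios were tested on simulated counts with planted changes, and the other steps were not. Python 3.11.15, NumPy 2.4.6, pandas 2.3.3, SciPy 1.17.1 and matplotlib 3.10.9 were used.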

Additional observations from a re-analysis of the deposited data

How the results depend on the processing

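With 1 library per cell line, no setting tells a difference between genotypes from one between cultures. No paired analysis was possible because each group holds 1 library. The number of the 10 genes past 2-fold was 0 under every alternative except the 1.5-fold threshold, where it was 2. The median log2 ratio of the 10 stayed between 0.0027 and 0.0575. With at least 5 RPKM, Ubn1 and Ubn2 were dropped, so the count and median under that setting cover only the remaining genes. Of 40 ratios of single genes under 4 settings of pseudocount and scaling, 31 stayed within their counting interval and 9 left it. The sign was kept in 9 of 10 genes, and Cabin1 went from -0.0099 to 0.0362 with both libraries scaled to the same RPKM sum and to 0.0445 with ratios centred on the median of all probes. The counts over all probes (689 lower, 439 higher) depended on the settings, being 356 and 196 with 1 RPKM added, 1289 and 774 with at least 0.25 RPKM, 239 and 181 with at least 5 RPKM, 2877 and 1445 without a minimum, 1509 and 1215 past 1.5-fold, and 353 and 168 past 3-fold. Scaling to the same RPKM sum gave 655 and 493, and centring gave 647 and 502. In the other lists, 1 lower and 3 higher genes past 2-fold became 0 and 0 past 3-fold, and the higher genes became 2 with 1 RPKM added and with at least 5 RPKM, Suv39h1 being lost in both. The share of H3f3a in H3.3 was 11.6% in WT and 8.97% in G34R cells with 1 RPKM added, 12.9% and 9.4% in estimated reads, 18.4% and 12.8% with the RPKM of the pseudogene rows added, and 13.3% and 9.43% with their reads added at the H3f3a length (chosen after seeing the data). The share of H3.3 in all H3 was 10.4% and 6.74% in estimated reads, and 3.29% and 2.03% with the RPKM of the pseudogene rows added. Under each of these settings both shares were lower in G34R cells. All of them use the same H3f3a probe, which may cover the mutant transcript only in part, so none of them tests that limit.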
